A study of Caenorhabditis elegans with 12 samples.

Results

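H3K9me3 levels over genes were compared directly between hrde-2 mutants and hrde-1 mutants of the nematode C. elegans. The comparison used the 3 H3K9me3 libraries of hrde-2/enri-3(qe20) V animals (strain FD53) and the 3 of hrde-1(tm1200) III animals (strain USC661 per the labels, a name that the strain list in the study's reporting summary does not hold), which are 6 of the 12 libraries of the series. The remaining libraries were 3 H3K9me3 libraries from wild-type N2 animals, used here only to say which mutant had moved, and 1 library of each genotype labelled IgG, whose label names the antibody that the methods use as the secondary one. All libraries came from germline nuclei purified from whole worms, day 1 adults grown at 20 °C and collected about 68 h after the L1 stage, with 50000 animals collected and 50000 nuclei used. The labels describe the replicates as biological triplicates. Each mutant was 1 strain, so the mutation, the rest of that strain's genome and the DNA copy number of any locus cannot be told apart.

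HRDE-1 is the Argonaute protein that carries small RNAs (22G-RNAs) into germline nuclei, where it directs silencing and H3K9 methylation of the genes those RNAs match. HRDE-2 is a germ granule protein that interacts with HRDE-1 and is needed for HRDE-1 to be loaded with the right class of small RNA. An hrde-1 mutant therefore lacks the Argonaute, whereas an hrde-2 mutant keeps it with an altered set of small RNAs, and the direct comparison asks where the mark differs between those states.

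The method was CUT&Tag, in which a transposase held at the mark by an antibody cuts the DNA there and adds sequencing adapters. The study found that the antibody used cross-reacted with H3K27me3 and H4K20me3, and fragments of those marks may be among the counts. Values are fragment counts over the exons of each gene. Levels are given as counts per 1000000 nuclear counts of the library (CPM). The fold changes come from edgeR's quasi-likelihood test, as hrde-2 minus hrde-1 on the log2 scale with the standard error (SE), and adjusted p-values are Benjamini-Hochberg values over all tested genes. A gene is called higher or lower when its adjusted p is under 0.05.

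The 6 libraries held between 6142642 and 8476608 nuclear counts, so the 3 counts that a listed 0 allows equal 0.354 to 0.488 CPM. The wild-type H3K9me3 libraries held between 1446079 and 8562982, and the IgG libraries only 219148 (wild-type), 35068 (hrde-1) and 13682 (hrde-2). Correlations of log2 CPM ran from 0.956 to 0.970 within a mutant and from 0.949 to 0.968 between the mutants, so the 6 libraries were about as alike across genotypes as within them. No spike-in scaling was applied, and every difference is relative to the rest of that library. The level of the mark at marker genes cannot count cells, and fewer nuclei with the mark at a locus cannot be told apart from less mark in each nucleus.

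H3K9me3 differed between the mutants at few genes. Of 28107 nuclear genes tested, 100 (0.356%) were higher in hrde-2 mutants and 78 (0.278%) were lower, together 0.633% of genes. The median log2 fold change over all tested genes was 0.00. Without adjustment, 1242 higher and 1259 lower genes had a p under 0.05, so under the scaling used the counts of weak differences were close to even. That scaling centres most genes near 0, so this evenness and the median do not show that the mutants were balanced. The CPM ranges of the 2 mutants did not overlap at 3992 genes (14.2%), among them all 100 higher and 75 of the 78 lower calls. Differences past 1 on the log2 scale were found at 31 higher and 14 lower calls. Leaving out hrde-2 replicate 2 brought the calls to 54 higher and 25 lower, hrde-1 replicate 1 to 61 and 22, and hrde-1 replicate 3 to 65 and 47. Without hrde-1 replicate 2 there were 100 and 147, and without hrde-2 replicate 1 there were 87 and 48. The calls of all 6 such fits shared 46 higher and 16 lower genes.

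The balance of the 2 directions depended on the scaling. With the default scaling 56.2% of the calls were higher in hrde-2 mutants. Scaling by library totals alone gave 123 higher and 37 lower calls (76.9% higher), and scaling on the 10% of genes that had the highest counts per kb gave 176 and 26 (87.1%). The last setting moved the median of all genes to 0.12.

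**Figure D1:**
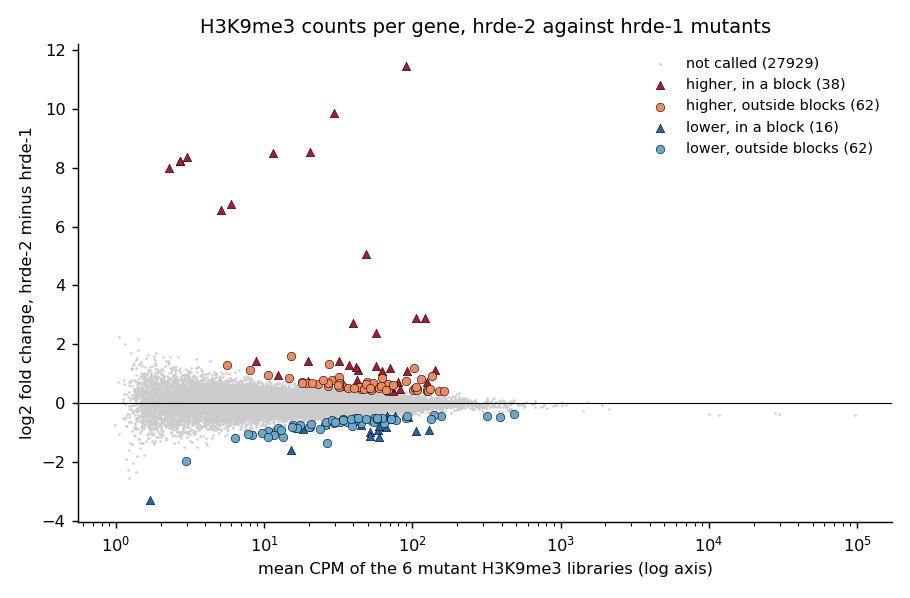
Log2 fold change of each tested gene (hrde-2 minus hrde-1) against the mean CPM of the 6 mutant libraries on a log axis. Triangles are called genes that lie in blocks of neighbouring calls, circles are called genes elsewhere, red is higher and blue lower in hrde-2 mutants; all 15 points above 2.3 are triangles, and the fold changes of genes with 0 hrde-1 counts depend on the prior count of the fit.

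Neither targeted gene was used as a check of the labels, since counts summed over all exons of a gene need not show a mutation. At hrde-1 the hrde-1 libraries held 89.6, 90.7 and 97.1 CPM and the hrde-2 libraries 121.9, 119.2 and 125.1 CPM. Wild-type held 84.1, 89.2 and 88.3 CPM, near the hrde-1 level. Against wild-type the log2 fold changes were 0.06 in hrde-1 and 0.38 in hrde-2 mutants, and neither was called. The ranges of the mutants did not overlap, but the log2 fold change of 0.33 (SE 0.10) between them did not pass the edgeR test (adjusted p = 0.146). With scaling on the 10% of genes that had the highest counts per kb it passed (edgeR adjusted p = 0.0158). At hrde-2 the values were 17.95, 24.8 and 20.4 CPM in hrde-1 mutants against 26.0, 25.8 and 23.4 CPM in hrde-2 mutants, and the difference of 0.18 (SE 0.16) did not pass either (edgeR, adjusted p = 0.802).

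Calls lay next to each other on the chromosomes. A block was defined as 3 or more genes called in 1 direction, each separated from the next by no more than 2 other tested genes. There were 10 such blocks, of which 6 were higher in hrde-2 mutants and 4 lower. They held 54 of the 178 calls (30.3%). The tested genes that flank the blocks were not called. The block definition was applied after the test, so the blocks are a description of where the calls lie. Without hrde-2 replicate 2 there were 5 blocks and without hrde-1 replicate 1 there were 6.

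The block with the largest fold change lay on chromosome V, from srw-83 to ZK228.4 (chrV:18426580-18465320, WS258), where all 12 tested genes were called higher in hrde-2 mutants. Summed over the 12 genes, the level was 20.7, 30.4 and 20.8 CPM in hrde-1 mutants, 419, 581 and 481 CPM in hrde-2 mutants and 482 CPM on average in wild-type. The hrde-1 libraries were the ones that stood apart, at a level 20.6-fold below hrde-2 mutants, and all 12 genes also differed between hrde-1 mutants and wild-type.

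Most of the hrde-1 level in that block was at srw-83, which encodes a serpentine receptor of the chemoreceptor type and lies at the block's edge. Its level was 17.5, 27.5 and 17.7 CPM in hrde-1 mutants and 48.5, 62.3 and 49.2 CPM in hrde-2 mutants, without overlap (log2 fold change 1.29, SE 0.14, edgeR adjusted p = 9.7e-10). The other 11 genes together held 21, 23 and 26 counts in the hrde-1 libraries against 2277, 3581 and 2712 in the hrde-2 libraries, and 61 of those 70 hrde-1 counts were at ZK262.8. ZK262.8 stood at 3.25, 2.22 and 2.60 CPM in hrde-1 mutants and at 71.5, 116 and 97.2 CPM in hrde-2 mutants (log2 fold change 5.08, SE 0.18, edgeR adjusted p = 2.0e-31).

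ZK228.1 was close to empty in hrde-1 mutants. It held 0, 0.123 and 0 CPM there, 148.96, 214.9 and 177.2 CPM in hrde-2 mutants and 171 CPM on average in wild-type. In counts this was 1 against 3511, a ratio of 4185 with a 95% counting interval of 751 to 165364. Ratios at srw-82 (1 against 1141 counts, 1360, interval 244 to 53771) and ZK262.9 (2 against 785 counts, 468, interval 129 to 3870) were also above 100. The genes ZK262.20, ZK228.10, WBGene00014983 and ZK228.4 had 0 counts in the 3 hrde-1 libraries, and with 3 counts over the group as the floor they were at least 41.7-fold, 35.8-fold, 41.7-fold and 45.7-fold higher in hrde-2 mutants. These intervals and floors cover counting error only, because PCR copies of a fragment are not separate molecules.

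The IgG libraries held few counts over those 11 genes. There were 35 in the wild-type, 4 in the hrde-1 and 6 in the hrde-2 IgG library. All 4 of the hrde-1 IgG counts fell on srw-82, a gene with 1 count in the 3 hrde-1 H3K9me3 libraries together. DNA content was not measured in these libraries, so the number of copies of the block and the mark on each copy cannot be told apart.

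The next largest block lay on chromosome I from abtm-1 to Y23H5B.5 (chrI:2472066-2506259), and there hrde-2 mutants were the ones that stood apart. Summed over its 5 genes, the level was 80.2, 102 and 84.6 CPM in hrde-1 mutants, 569, 606 and 605 CPM in hrde-2 mutants and 82.1 CPM on average in wild-type, a 6.66-fold difference between the mutants. All 5 genes were called against wild-type in hrde-2 mutants and 0 in hrde-1 mutants.

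Among the genes of that block, ddx-10 encodes a DEAD-box RNA helicase. Its level was 24.5, 30.2 and 27.3 CPM in hrde-1 mutants and 213, 210 and 219 CPM in hrde-2 mutants, with 26.7 CPM in wild-type (log2 fold change 2.90, SE 0.11, edgeR adjusted p = 7.9e-31). The translation initiation factor 3 subunit gene eif-3.I had 22.4, 29.1 and 20.6 CPM against 176, 193 and 188 CPM (2.88, SE 0.11, edgeR adjusted p = 1.0e-29). At both genes every hrde-2 library was several times above every hrde-1 library.

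Levels of Y23H5B.5 were 17.3, 19.3 and 15.9 CPM in hrde-1 mutants and 87.9, 101 and 98.8 CPM in hrde-2 mutants (2.39, SE 0.12, edgeR adjusted p = 1.4e-23). The smallest difference of the block was at abtm-1, which encodes a mitochondrial ABC transporter, with 8.20, 12.7 and 9.67 CPM against 27.5, 31.3 and 28.2 CPM (1.44, SE 0.18, edgeR adjusted p = 2.3e-08). IgG levels over the block were 68.4 CPM in the wild-type library (95% interval 38.3 to 113), 342 CPM in the hrde-1 library (177 to 598) and 439 CPM in the hrde-2 library (161 to 955). The 12 hrde-1 IgG counts fell on 2 genes, 7 on ddx-10 and 5 on Y23H5B.5, and 5 of the 6 hrde-2 IgG counts fell on ddx-10. The wild-type library held 15 counts there. With 1 IgG library of each genotype there is no test between genotypes, and the intervals cover counting error only.

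**Figure D2:**
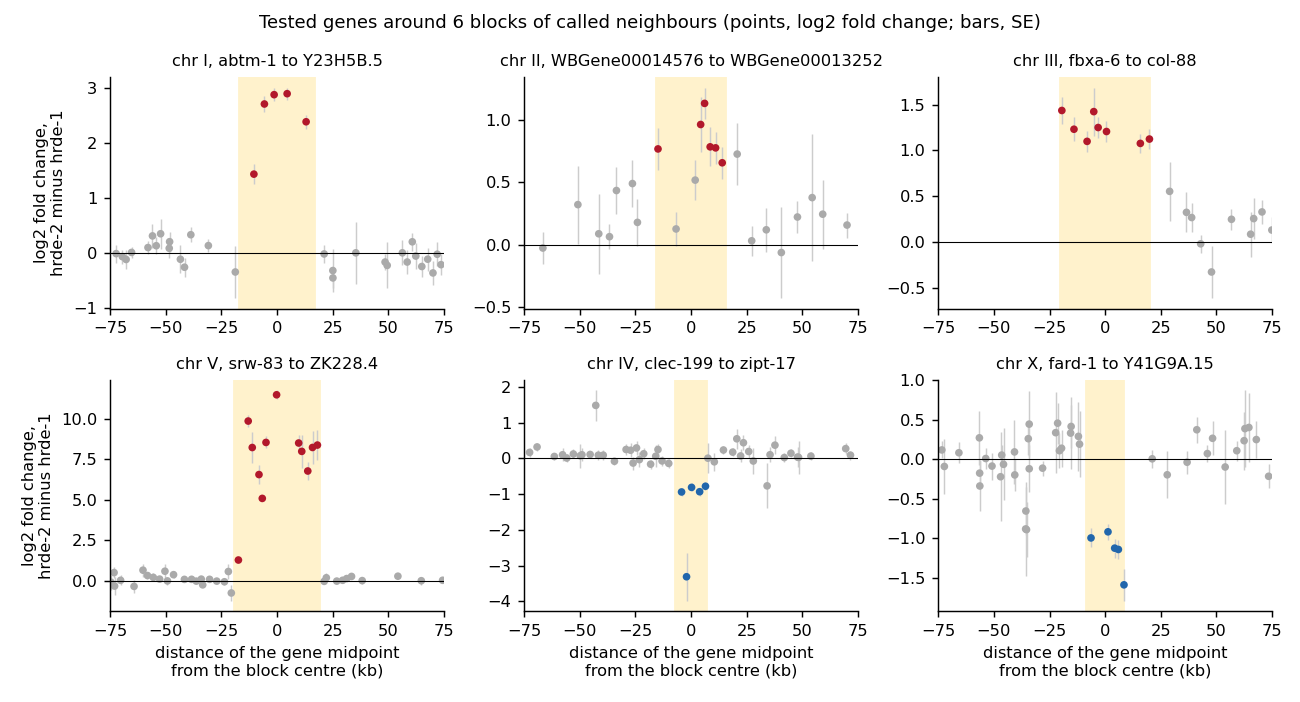
Log2 fold change (hrde-2 minus hrde-1, bars SE) of the tested genes within 75 kb of the centre of 6 blocks, by the distance of the gene's midpoint from that centre in kb. Shading spans the block, red points are called higher and blue points lower in hrde-2 mutants, and the genes just outside the shading are grey, since none of them was called.

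A block at the left end of chromosome III ran from fbxa-6 to col-88 (chrIII:1271-42021) and took in the first 8 tested genes of that chromosome. Its summed level was 304, 336 and 266 CPM in hrde-1 mutants, 715, 698 and 719 CPM in hrde-2 mutants and 367 CPM in wild-type, a 2.35-fold difference between the mutants. Against wild-type, 7 of the 8 genes were called in hrde-2 mutants. The next tested gene, W05G11.7, had a log2 fold change of 0.55 that did not pass the test (edgeR adjusted p = 0.649).

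Within that block the genes had unrelated roles. The F-box gene fbxa-6 stood at 17.95, 18.52 and 13.69 CPM in hrde-1 mutants and 55.02, 47.50 and 39.35 CPM in hrde-2 mutants (1.44, SE 0.15, edgeR adjusted p = 1.4e-10), with 14.7 CPM in wild-type. The collagen gene col-88, at the other end, held 94.6, 96.9 and 69.0 CPM against 168, 198 and 226 CPM (1.12, SE 0.11, edgeR adjusted p = 2.2e-11). Its wild-type mean of 115.3 CPM lay between the 2 mutants, whereas at fbxa-6 the hrde-1 and wild-type levels were close.

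On chromosome II, 6 of the 8 tested genes from WBGene00014576 to WBGene00013252 (chrII:12131530-12162671) were higher in hrde-2 mutants. The summed level was 138 CPM on average in hrde-1 mutants, 257.9 CPM in hrde-2 mutants and 243 CPM in wild-type, and 4 of the genes were called against wild-type in hrde-1 mutants. Y57A10A.4 changed most, with 26.9, 27.0 and 23.8 CPM in hrde-1 mutants and 59.1, 60.4 and 58.8 CPM in hrde-2 mutants (1.13, SE 0.13, edgeR adjusted p = 1.2e-09). Its wild-type mean was 61.7 CPM, so the hrde-1 libraries were the low ones.

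Both remaining higher blocks were on chromosome I and smaller in size. The block from tpxl-1 to icp-1 rose from 175 to 272 CPM (1.55-fold) and that from let-630 to npp-6 from 252 to 399 CPM (1.59-fold), while wild-type stood at 172 and 261 CPM. Their genes included tpxl-1, which encodes an activator of Aurora A kinase on the spindle, icp-1 for the INCENP subunit of the chromosomal passenger complex, and npp-6 for a nucleoporin. The condensin subunit gene hcp-6 changed most, from 82.2, 94.3 and 98.2 CPM in hrde-1 mutants to 149.3, 169.6 and 157.6 CPM in hrde-2 mutants (0.72, SE 0.10, edgeR adjusted p = 7.0e-07). The calls of tpxl-1, let-630 and npp-6 were lost without hrde-2 replicate 2, and each was also lost without at least 1 other library. The third called gene of the block from tpxl-1 to icp-1, epg-2, lost its call in all 6 fits that left out 1 library.

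Of the 4 blocks that were lower in hrde-2 mutants, the largest difference was on the X chromosome, from fard-1 to Y41G9A.15 (chrX:2933361-2950448). The level summed over its 5 genes was 384, 411 and 424 CPM in hrde-1 mutants, 205, 206 and 211 CPM in hrde-2 mutants and 190.2 CPM in wild-type, so hrde-2 mutants had 0.511 of the hrde-1 level. The hrde-1 mutants were the ones that stood apart, with all 5 genes called higher than wild-type. The phosphofructokinase gene pfk-1.1, named after its values were seen, had 147, 171 and 179 CPM in hrde-1 mutants and 91.0, 87.3 and 97.8 CPM in hrde-2 mutants (-0.92, SE 0.10, edgeR adjusted p = 9.9e-10). At fard-1, which encodes a fatty acyl-CoA reductase, the values were 69.8, 65.9 and 68.2 CPM against 40.5, 36.6 and 30.4 CPM (-0.995, SE 0.12, edgeR adjusted p = 1.8e-08). The 3 remaining genes, Y41G9A.5, Y41G9A.10 and Y41G9A.15, had log2 fold changes of -1.14, -1.12 and -1.59.

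On chromosome IV the 5 genes from clec-199 to zipt-17 (chrIV:17351886-17366491) were lower in hrde-2 mutants, with a summed level of 373 CPM in hrde-1 mutants, 212 CPM in hrde-2 mutants and 223 CPM in wild-type. The C-type lectin gene clec-199 had 134, 139 and 137 CPM against 77.7, 74.4 and 73.1 CPM (-0.94, SE 0.10, edgeR adjusted p = 4.4e-10). The hrde-1 libraries were high and the other mutant lay near the wild-type mean of 80.0 CPM. The zinc transporter family gene zipt-17 was lower too, with 76.0, 78.3 and 67.5 CPM against 44.4, 45.5 and 45.6 CPM (-0.78).

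Inside clec-199 lies a piRNA gene, 21ur-15638 (chrIV:17357116-17357136, minus strand, WS258), whose 21 bases are given because it had the lowest log2 fold change of all calls.
21ur-15638: cagtgttacagtccctaatgc
Its levels were 3.56, 2.099 and 3.54 CPM in hrde-1 mutants and 0.488, 0.434 and 0 CPM in hrde-2 mutants, at or near the floor of 3 counts in the latter (-3.31, SE 0.67, edgeR adjusted p = 0.0026). The call was lost without hrde-1 replicate 1 or 3. Since strand was not used in counting, its fragments cannot be told apart from those of the gene around it.

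The last pair of lower blocks differed less. From WBGene00077568 to frpr-5 on chromosome V (3 genes) the summed level was 110 CPM in hrde-1 mutants, 68.0 CPM in hrde-2 mutants and 61.3 CPM in wild-type. The peptide receptor family gene frpr-5 had 56.96, 63.09 and 45.07 CPM against 38.3, 34.6 and 30.6 CPM (-0.74, SE 0.13, edgeR adjusted p = 0.00014). The call of the middle gene, ttr-44, was lost in 4 of the 6 fits that left out 1 library. Between Y37A1B.332 and Y37A1B.330 on chromosome IV, 3 of 4 noncoding genes were lower, from 267 to 206 CPM, with 256 CPM in wild-type and 0 of them called against wild-type in either mutant. The calls of both end genes of this block were lost without hrde-1 replicate 1, hrde-2 replicate 1 or hrde-2 replicate 2, and with either of the 2 other scalings given above.

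**Figure D3:**
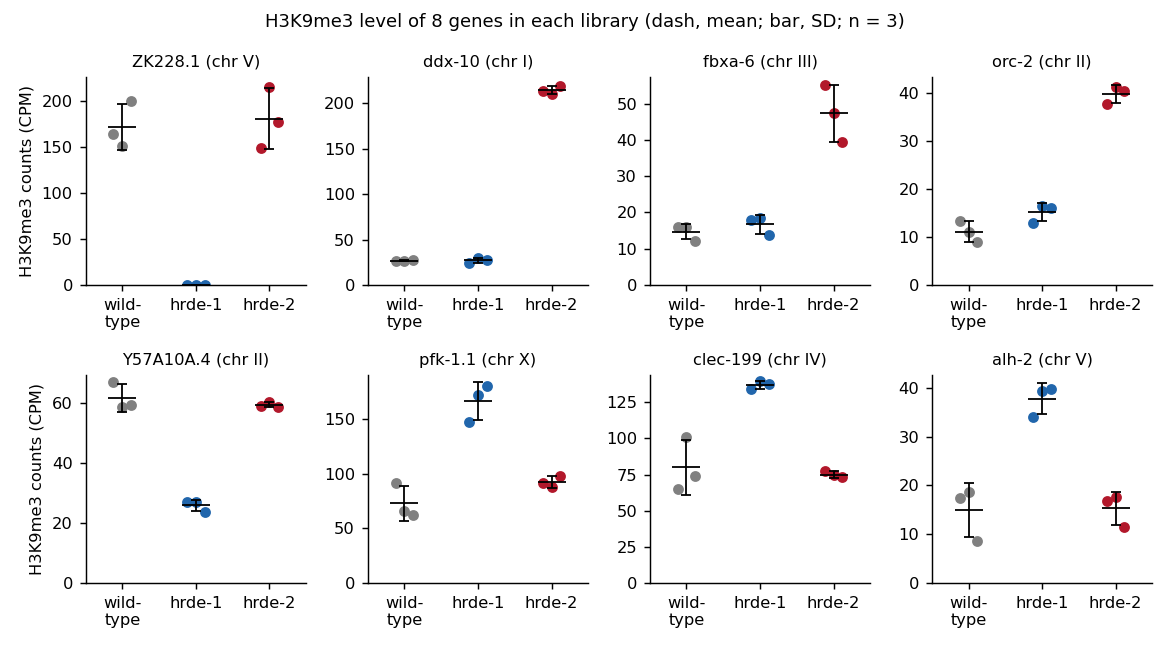
H3K9me3 level in CPM of 8 named genes in each of the 3 wild-type, 3 hrde-1 and 3 hrde-2 libraries (points; dash, mean; bar, SD). At ZK228.1 and Y57A10A.4 the hrde-1 libraries are low, at ddx-10, fbxa-6 and orc-2 the hrde-2 libraries are high, and at pfk-1.1, clec-199 and alh-2 the hrde-1 libraries are high.

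Outside the blocks the differences were smaller. The 62 higher calls there had a median log2 fold change of 0.59 (0.40 to 1.60) and the 62 lower calls one of -0.65 (-1.98 to -0.36), and 17 and 5 of them were held in all 6 fits that left out 1 library. The origin recognition complex gene orc-2 on chromosome II held 13.001, 16.42 and 16.04 CPM in hrde-1 mutants and 37.6, 41.3 and 40.3 CPM in hrde-2 mutants (1.32, SE 0.15, edgeR adjusted p = 3.2e-09). Wild-type stood at 11.1 CPM, so the hrde-2 libraries were high. The aldehyde dehydrogenase gene alh-2 on chromosome V went the other way, with 34.0, 39.3 and 39.8 CPM in hrde-1 mutants and 16.9, 17.7 and 11.47 CPM in hrde-2 mutants (-1.37, SE 0.16, edgeR adjusted p = 3.4e-09). Its wild-type mean was 14.9 CPM, so there the hrde-1 libraries were high.

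Further genes outside the blocks were picked after their values were seen. W08E12.4 on chromosome IV had 7.43, 7.90 and 6.49 CPM in hrde-1 mutants and 21.001, 22.74 and 25.5 CPM in hrde-2 mutants (1.60, SE 0.20, edgeR adjusted p = 4.2e-08), with 19.7 CPM in wild-type. The serpentine receptor gene srw-85 had 52.003, 76.79 and 53.91 CPM against 126.5, 157.8 and 148.6 CPM (1.18, SE 0.11, edgeR adjusted p = 2.8e-12), with 148.8 CPM in wild-type. At both genes the hrde-1 libraries were low. At tebp-2, which encodes a telomere-binding protein, the hrde-2 libraries were high instead, with 102, 136 and 108 CPM against 56.5, 71.2 and 67.6 CPM in hrde-1 mutants and 58.1 CPM in wild-type (0.76, SE 0.11, edgeR adjusted p = 1.5e-06). Its called neighbour cec-6, a chromodomain protein gene, had a log2 fold change of 0.62.

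Besides alh-2, further lower calls outside the blocks had large fold changes. The serpentine receptor gene srg-46 had 14.7, 22.8 and 16.9 CPM in hrde-1 mutants and 10.7, 8.11 and 6.69 CPM in hrde-2 mutants (-1.16, SE 0.21, edgeR adjusted p = 0.000485), and hrde-2 mutants were also below wild-type there (-1.002, edgeR adjusted p = 0.0248). ZC132.3 had 15.2, 21.2 and 10.3 CPM against 8.30, 9.85 and 4.94 CPM (-1.07, SE 0.24, edgeR adjusted p = 0.0093), again with hrde-2 mutants below wild-type (-1.17, edgeR adjusted p = 0.0176). The call of ZC132.3 between the mutants was lost without hrde-1 replicate 2 or hrde-2 replicate 3. M03C11.9 and F26D11.15 (-1.19 and -1.06) and the microRNA gene cel-mir-8209 (-1.08) were called with adjusted p-values from 0.0219 to 0.0473, and each call was lost in at least 4 of the 6 fits that left out 1 library.

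The wild-type libraries show which mutant moved. This uses a fit of all 9 H3K9me3 libraries in which both mutants share the wild-type libraries, so the 2 comparisons are not independent. In that fit the hrde-1 mutants had 22 genes above wild-type (0.0767%) and 150 below it (0.523%), together 0.599% of genes. The hrde-2 mutants had 55 above (0.192%) and 97 below (0.338%), together 0.53%. Of the 100 genes called higher in hrde-2 than in hrde-1 mutants, 35 were called against wild-type in hrde-2 mutants, 24 in hrde-1 mutants, 2 in both and 39 in neither. Of the 78 lower genes, 14 were called in hrde-1 mutants, 8 in hrde-2 mutants and 56 in neither. Between the mutants, this 9-library fit itself made 57 higher and 27 lower calls, and 84 of the 178 calls were among them. One of its wild-type libraries held only 1446079 nuclear counts. A gene in neither group may therefore lie near wild-type or be missed by this fit, and these were not told apart.

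**Figure D4:**
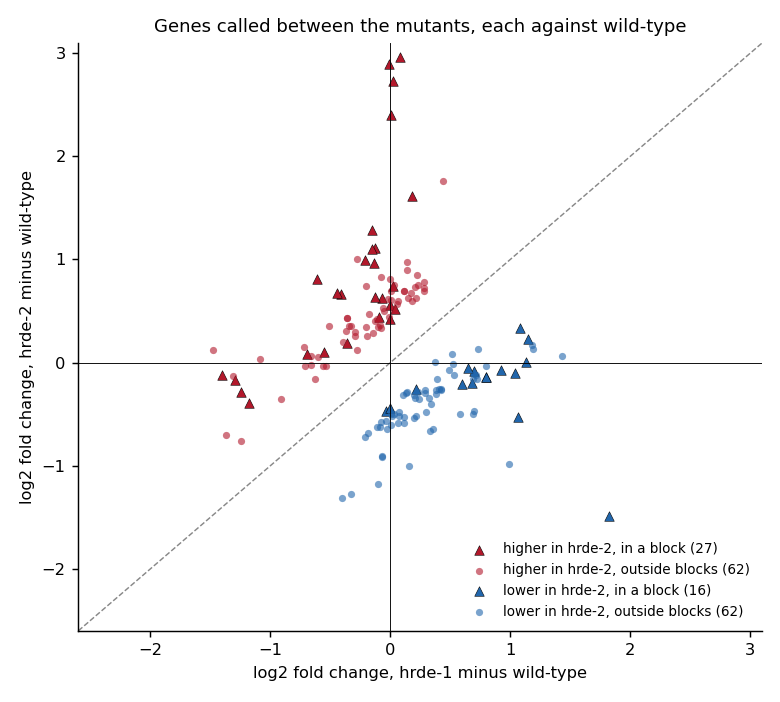
Log2 fold change against wild-type in hrde-2 mutants (vertical axis) by that in hrde-1 mutants (horizontal axis) for 167 of the 178 called genes; the other 11, from the chromosome V block, lie left of the axis. Red is higher and blue lower in hrde-2 than in hrde-1 mutants, triangles lie in blocks, the dashed line marks equal change, and both axes share the same wild-type libraries.

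The higher and the lower calls differed in kind. Among the higher calls 85 were protein-coding genes and 13 were pseudogenes, against 69.8% and 7.16% of the tested genes, with a median of 1859 exon bases, and 4 had under 300 exon bases. Among the lower calls 37 (47.4%) were annotated as ncRNA genes and 22 (28.2%) as protein-coding, against 17.3% and 69.8% of the tested genes. The lower calls also held 6 of the 271 tested tRNA genes (2.21%), 4 of the 82 snRNA genes (4.88%) and 3 of the 248 snoRNA genes (1.21%). Of all tested genes 0.278% were called lower. Among these tRNA, snRNA and snoRNA calls, only that of sls-2.1 was held in all 6 fits that left out 1 library. The lower calls had a median of 148.5 exon bases, and 49 (62.8%) had under 300 exon bases against 24.3% of all tested genes. Of the genes with at least 2400 exon bases 1.15% were called higher, against 0.356% of all tested genes. Of those under 100 bases 1.21% were called lower, against 0.278%.

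By position, the higher calls lay mostly in the outer parts of the autosomes, each cut into 3 equal parts (82 of 100, or 0.571% of the tested genes there against 0.170% in the middle parts). They were most frequent on chromosomes I (28, or 0.776% of its tested genes) and III (26, or 0.783%), against 0.356% of all tested genes. These counts include neighbours: blocks held 3, 5 and 4 of the calls on I and 8 of those on III. The share of the outer parts was not counted without blocks. X held 3 higher calls (0.0611% of its tested genes) and 13 lower calls (0.265%, close to the 0.278% of all tested genes). The shares of whole libraries did not pass a test. X held 14.02% ± 0.465 (SD, n = 3) of nuclear counts in the hrde-1 libraries and 14.25% ± 0.204 in the hrde-2 libraries, and the outer parts 64.5% ± 1.39 and 63.6% ± 0.854 (exact permutation test, two-sided, p = 0.4 for each). Both differences changed sign when the nuclear rRNA genes were left out, to -0.445 points for X and 0.662 points for the outer parts, hrde-2 minus hrde-1 (exact permutation p = 0.3 for each). Genes under 300 exon bases other than rRNA genes took 8.90% ± 0.578 and 8.25% ± 0.221 (exact permutation p = 0.2). All 3 adjusted values were 0.4, and the smallest p that 3 against 3 libraries can give is 0.1.

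Some of the short genes called lower share sequence with tRNA or snRNA genes. Of the 48 lower calls with 1 exon of under 300 bases, 12 (25.0%) shared at least 30 bases on either strand with a tRNA gene. Such a stretch was shared with an snRNA gene by 5 (10.4%). Among the 6188 tested genes of that kind the shares were 9.65% and 1.78%. The 12 include the 6 tRNA genes called lower and the 5 include the 4 snRNA genes, each matching another gene of its type. Of the 3 higher calls of that kind, 1 shared such a stretch with a tRNA gene. The median log2 fold change of all tested short genes was -0.08, and it was -0.19 for those with a tRNA stretch, -0.21 for those with an snRNA stretch and -0.06 for those with neither. A fragment that fits several copies may have been placed at any of them, so the counts of each copy are uncertain. Of the 45 short lower calls outside blocks, 2 were held in all 6 fits that left out 1 library.

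Examples, picked after their values were seen, show the shared stretches. The first pair is a tRNA gene (chrIII:11067027-11067098, plus strand, WS258) and its called neighbour W09D6.10 (chrIII:11066838-11066925, plus strand), with capitals for the 72 bases of each that are the reverse complement of the other. The tRNA sequence occurs 24 times in the genome.
WBGene00014552: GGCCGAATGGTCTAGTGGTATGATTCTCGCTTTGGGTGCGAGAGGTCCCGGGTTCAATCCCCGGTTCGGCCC
W09D6.10: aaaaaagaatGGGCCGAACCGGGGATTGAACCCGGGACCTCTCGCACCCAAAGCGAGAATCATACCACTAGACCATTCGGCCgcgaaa
The tRNA gene WBGene00014552 had 26.3, 18.8 and 19.1 CPM in hrde-1 mutants and 15.5, 13.3 and 11.8 CPM in hrde-2 mutants (-0.73, SE 0.19, edgeR adjusted p = 0.0388). W09D6.10 had 33.3, 21.2 and 20.5 CPM against 16.4, 17.2 and 14.8 CPM (-0.70, SE 0.18, edgeR adjusted p = 0.0423). The hrde-1 libraries were above the hrde-2 libraries at both. Each of these calls was lost in 4 of the 6 fits that left out 1 library, both without hrde-1 replicate 1, hrde-2 replicate 2 or hrde-2 replicate 3, the tRNA gene also without hrde-1 replicate 3 and W09D6.10 without hrde-2 replicate 1.

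A second pair is sls-2.1, which encodes a spliced leader RNA (chrII:5844865-5844974, plus strand), and C17C3.23 (chrII:5543581-5543698, minus strand), with capitals for the 70 complementary bases. Each whole sequence occurs 1 time in the genome.
sls-2.1: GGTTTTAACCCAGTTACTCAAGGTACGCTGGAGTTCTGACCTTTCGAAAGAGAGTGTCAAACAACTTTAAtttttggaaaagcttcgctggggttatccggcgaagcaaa
C17C3.23: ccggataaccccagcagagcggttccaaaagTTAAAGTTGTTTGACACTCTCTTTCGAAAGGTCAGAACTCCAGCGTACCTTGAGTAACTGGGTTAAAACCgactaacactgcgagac
At sls-2.1 the levels were 88.1, 71.2 and 72.8 CPM in hrde-1 mutants and 56.3, 54.02 and 43.3 CPM in hrde-2 mutants (-0.67, SE 0.12, edgeR adjusted p = 0.00023). C17C3.23 had 55.9, 57.7 and 49.1 CPM against 33.0, 33.6 and 39.7 CPM (-0.68, SE 0.12, edgeR adjusted p = 0.00052). The groups did not overlap at either gene, and both calls were held in all 6 fits that left out 1 library.

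One short lower call holds a simple repeat. T24A11.5 (chrIII:3799393-3799447, plus strand), an ncRNA gene, is shown with capitals for its run of 38 bases of repeated TC.
T24A11.5: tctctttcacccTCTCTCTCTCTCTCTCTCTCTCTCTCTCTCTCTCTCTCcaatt
Its levels were 2.94, 5.68 and 5.54 CPM in hrde-1 mutants and 1.14, 1.01 and 1.59 CPM in hrde-2 mutants (-1.98, SE 0.46, edgeR adjusted p = 0.0145). The call was lost in 4 of the 6 fits that left out 1 library, those without hrde-1 replicate 2 or 3 and those without hrde-2 replicate 1 or 2.

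Genes of the small RNA pathway itself were among the higher calls. Of 33 genes of the 22G-RNA machinery and germ granules, 6 (18.2%) were higher in hrde-2 mutants and 0 lower, and 28 lay above 0, with a median log2 fold change of 0.15 against 0.356% higher and a median of 0.00 for all tested genes. The 28 are 84.8% of the list, against 50.9% of all tested genes, and 12 (36.4%) had an unadjusted p under 0.05, against 8.90% of all tested genes. Of the 6 calls, 2 were held in all 6 fits that left out 1 library, pid-2 and deps-1. Their summed level was 1948, 2264 and 2108 CPM in hrde-1 mutants and 2497, 2671 and 2599 CPM in hrde-2 mutants, without overlap, and 1995 CPM in wild-type. The list's genes are long, with a median of 2671 exon bases, and long genes were called higher more often than others.

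Among its members pid-2, which encodes a germ granule protein, had 33.6, 34.8 and 39.6 CPM in hrde-1 mutants and 61.7, 64.7 and 60.4 CPM in hrde-2 mutants (0.72, SE 0.12, edgeR adjusted p = 8.3e-05). The P granule gene deps-1 had 49.1, 64.1 and 54.03 CPM against 91.0, 84.3 and 89.2 CPM (0.59, SE 0.11, edgeR adjusted p = 0.00045). Wild-type stood at 34.3 and 54.2 CPM, near the hrde-1 level in both cases. The neighbouring genes rrf-1 and ego-1, which encode RNA-dependent RNA polymerases that make 22G-RNAs, had log2 fold changes of 0.56 and 0.49 (edgeR adjusted p = 0.0029 and 0.0025). The call of ego-1 was lost without hrde-2 replicate 2, and that of rrf-1 without hrde-1 replicate 3 or hrde-2 replicate 1. The helicase gene glh-4 and the Argonaute gene wago-4, named after their values were seen, completed the 6 with 0.45 and 0.42. The call of glh-4 was lost without hrde-1 replicate 1 or hrde-2 replicate 2, and that of wago-4 in 4 of the 6 fits, those without hrde-1 replicate 1 or 3 and those without hrde-2 replicate 2 or 3.

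Of 21 nuclear RNAi and H3K9 methylation genes, 1 was higher (4.76%, against 0.356% of all tested genes) and 0 lower. There were 15 above 0 (71.4%, against 50.9% of all tested genes), with a median of 0.14. That gene was morc-1, which encodes a GHKL ATPase that acts in heritable silencing, with 57.1, 58.6 and 52.6 CPM in hrde-1 mutants and 80.4, 85.7 and 75.2 CPM in hrde-2 mutants (0.45, SE 0.11, edgeR adjusted p = 0.0216). The groups did not overlap, but the call was lost in 5 of the 6 fits that left out 1 library. The nuclear RNAi gene nrde-2, named after its value was seen, had a log2 fold change of 0.42 that did not pass (edgeR adjusted p = 0.0556). The genes of this list are long too, with a median of 2267 exon bases, against 920 for all tested genes.

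**Figure D5:**
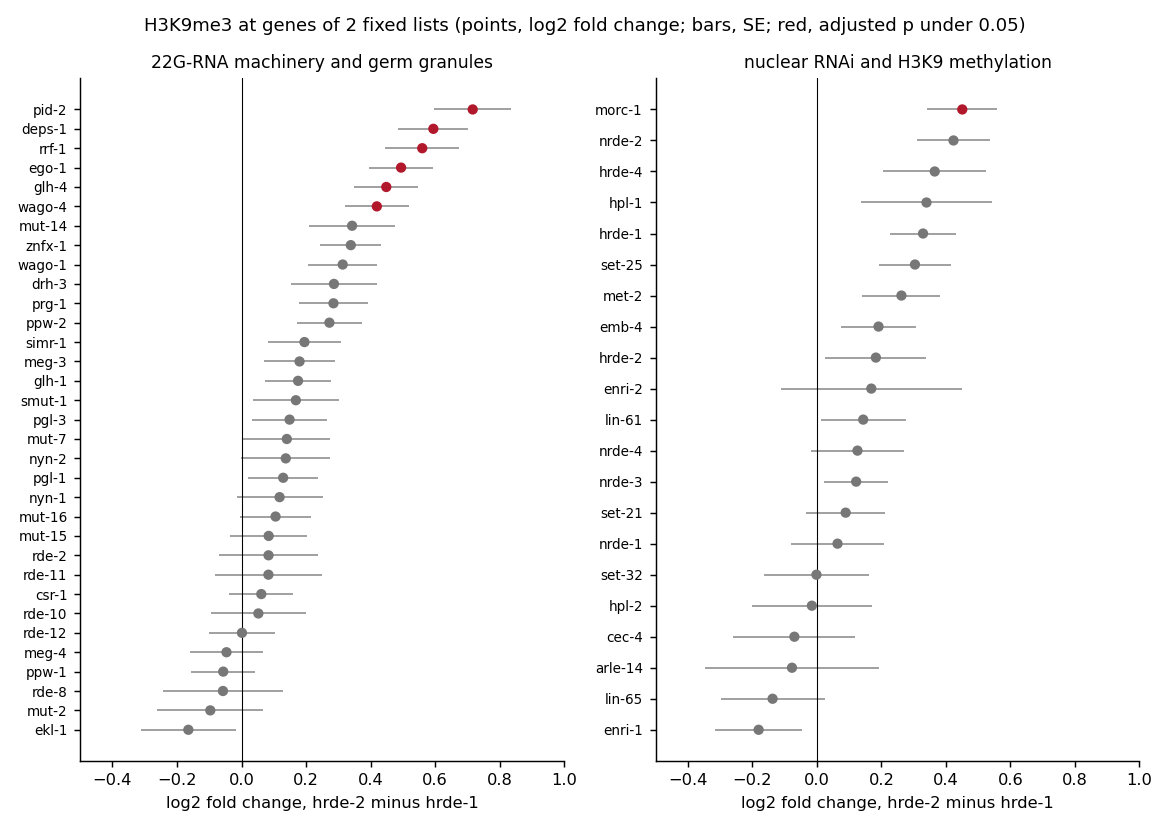
Log2 fold change (hrde-2 minus hrde-1, bars SE) of the 33 genes of the 22G-RNA and germ granule list (left) and the 21 genes of the nuclear RNAi and H3K9 methylation list (right), each ordered by value. Red points passed the test, 6 on the left and 1 on the right, and 28 and 15 genes lie above 0.

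Lists of the study's HRDE-1 targets were described in the same way. They come from small RNAs bound to HRDE-1 in mut-2 and in mut-2; hrde-2 animals, not from the strains sequenced here. Of the 584 tested genes bound in mut-2; hrde-2 animals, 21 (3.60%, against 0.356% of all tested genes) were higher in hrde-2 mutants and 0 lower, and the median was 0.05. Without genes of the blocks there were 17 of 580 (2.93%), and 9 of the 21 calls were held in all 6 fits that left out 1 library. Of the 948 tested genes bound in mut-2 animals, 13 (1.37%) were higher and 1 lower, also with a median of 0.05. Without genes of the blocks there were 9 of 944 (0.953%), and 5 of the 13 calls were held in all 6 fits. The 2 lists share members, and 6 higher calls were in both while 72 of the 100 were in neither. The first list had a median of 1773 exon bases and the second one of 1102, against 920 for all tested genes. Long genes were called higher more often than others.

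C28A5.2 on chromosome III was among the called genes bound in mut-2; hrde-2, with 84.5, 98.3 and 90.5 CPM in hrde-1 mutants and 164, 209 and 167 CPM in hrde-2 mutants (0.91, SE 0.10, edgeR adjusted p = 9.9e-10). The hrde-2 libraries were all above 160 CPM and wild-type stood at 93.7 CPM. The genes eif-3.I, abtm-1 and orc-2, described above, were called members of the same list, and ddx-10, Y57A10A.4, ZK262.8 and orc-2 of the list bound in mut-2.

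Genes with changed mRNA levels in the study were also looked up. Of the 1062 tested genes whose mRNA was higher in hrde-2 mutants, 15 (1.41%, against 0.356% of all tested genes) were higher in H3K9me3 and 0 lower, with a median of 0.01. Of these 15, 7 lay outside the blocks, and 5 were the whole chromosome I block from abtm-1 to Y23H5B.5. Of the 186 whose mRNA was higher in hrde-1 mutants, 5 (2.69%) were higher and 2 lower, with a median of 0.03, and 1 of the 5 was held in all 6 fits that left out 1 library. Among these 186, ife-5, an eIF4E gene, had 32.8, 46.7 and 41.8 CPM in hrde-1 mutants and 66.1, 75.9 and 61.2 CPM in hrde-2 mutants (0.67, SE 0.12, edgeR adjusted p = 0.00024). Wild-type stood at 64.8 CPM, so the hrde-1 libraries were low. A further list holds the 67 WAGO class and 349 sperm class genes, 41 of them shared, that the study selected for higher mRNA and reduced HRDE-1 binding in hrde-2 mutants, so it is not those whole classes. This WAGO and sperm class list held 2 higher (0.533%, near the 0.356% of all tested genes) and 0 lower calls among 375 genes, ZK262.8 and ZK262.9 of the chromosome V block, with a median of -0.01.

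Gene families gave few calls. The F-box families held 1 higher call among 169 fbxa genes (0.592%, against 0.356% of all tested genes), 0 among 103 fbxb genes and 2 among 48 fbxc genes (4.17%), with medians of 0.05, 0.11 and 0.09. The calls of fbxc-4 and fbxc-8 were lost in 4 and 5 of the 6 fits that left out 1 library. At 11 of the fbxb genes (10.7%, against 8.90% of all tested genes) the unadjusted p was under 0.05. No histone gene (72 tested, median -0.12, 8 or 11.1% at an unadjusted p under 0.05) and no major sperm protein gene (31 tested, median -0.11, 1 at that p) was called by edgeR. Only 411 of 15363 piRNA genes had enough counts to be tested, and 1 was called, the one shown above.

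Marker genes of tissues had no calls, but only 0.633% of all tested genes were called, so lists this short would seldom hold one. Among the 15 germline markers 12 lay above 0 (80.0%, against 50.9% of all tested genes). Their median was 0.13, with summed levels of 665 to 765 CPM in hrde-1 mutants and 818 to 843 CPM in hrde-2 mutants. All 7 intestine and all 6 muscle markers lay below 0, with a median of -0.17 for both lists. The unadjusted p was under 0.05 at 3 intestine (42.9%), 2 muscle (33.3%) and 2 germline markers (13.3%), against 8.90% of all tested genes. At sperm, neuron and hypodermis markers it was so at 0. Summed levels were 1315 to 1475 CPM in hrde-1 mutants and 1117 to 1299 CPM in hrde-2 mutants for intestine, and 1493 to 1692 CPM and 1375 to 1644 CPM for muscle. The wild-type means were 1125 CPM for intestine and 1449 CPM for muscle. The medians of the sperm, neuron and hypodermis lists were -0.02, -0.06 and -0.11, and no marker was at 0 in every library of both mutants. The part of this in the higher level at small RNA genes was not tested.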

How the data were processed

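The deposited files hold fragment counts per gene. Per the file headers and the labels, the authors aligned paired-end reads with Bowtie2 2.5.0 to the WS258 genome and ran featureCounts (Subread 2.0.1), which assigned fragments to exons and summed them by gene without use of strand. Fragments in introns or between genes are not in these counts, and removal of duplicates is not stated. Other tools in the submitters' processing notes (bedtools 2.30.0, SEACR 1.3, DiffBind 3.17) made no file used here.

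The last column of each file was used. Of 46760 genes, the 36 mitochondrial ones were left out of totals and tests, and 46564 IDs matched Ensembl release 115 for symbols and types. The 3 hrde-2 and 3 hrde-1 H3K9me3 libraries were fitted alone with edgeR 4.0.16 in R 4.3.3 (TMM scaling, filterByExpr with a minimum count of 10, quasi-likelihood F-test). The SE was derived from that test, as the absolute log2 fold change divided by the square root of the F statistic. CPM values divide by nuclear totals without TMM. Intervals on IgG counts are exact Poisson intervals and those on ratios of counts are exact binomial, at 95%. The fit was tested on simulated data. Sequences were read from the WBcel235 genome at the WS258 coordinates of the files.

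Alternatives were DESeq2 1.42.0 (size factors and Wald test), 2 other scalings, other filters, thinned libraries, a replicate block, all 9 libraries and each library left out.

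The comparison, members and gene lists were chosen with earlier results of these data known. The genes named were 9 fixed ones, the 12 largest called changes in each direction without overlap of the groups, the first, last and most changed gene of each block, and up to 4 called genes of each list by p; all others, further block members and neighbours included, were named after their values were seen. The target and mRNA lists use membership only. For targets bound in mut-2; hrde-2, 154 entries after a break in the sheet's order were dropped. Symbols wago-3, cde-1 and zsp-1 had no match.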

Additional observations from a re-analysis of the deposited data

Results flagged for a closer look

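At some genes the mutants moved to opposite sides of wild-type: all 3 hrde-1 libraries lay past all wild-type libraries on one side and all 3 hrde-2 libraries on the other. This was seen at 9 of the 178 called genes, in CPM without TMM. Called genes were already picked for a difference between the mutants. The share of all tested genes that meets the same rule was not counted, so the 9 cannot be read as many or few. The edgeR test behind these calls was of the difference between the mutants. That each mutant moved away from wild-type was not required to pass a test. Among the named genes, T24A11.5 (log2 fold change -1.98, hrde-2 minus hrde-1) had a wild-type mean of 2.42 CPM between the mutants. F38B7.15, a short ncRNA gene (-1.16), had 18.3, 12.8 and 12.0 CPM in hrde-1 mutants and 6.67, 6.52 and 7.01 CPM in hrde-2 mutants, with 8.91 CPM in wild-type, and its call was lost without hrde-1 replicate 1 or hrde-2 replicate 2. At col-88 (1.12) hrde-2 mutants were above and hrde-1 mutants below wild-type, and the same held for the summed level of its block from fbxa-6 to col-88, where the ratio of hrde-2 to hrde-1 mutants was 2.35 (the summed level was not tested).

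IgG libraries, which enter no comparison, had a higher share of their counts over the chromosome I block from abtm-1 to Y23H5B.5 in both mutants than in wild-type. The level was 342 CPM in the hrde-1 and 439 CPM in the hrde-2 library, against 68.4 CPM in the wild-type library, whose 95% interval ended at 113. These levels rest on 12, 6 and 15 counts in libraries of very unequal size, and the intervals cover counting error only. Over the block from fbxa-6 to col-88 the IgG levels were 428 and 292 CPM in the hrde-1 and hrde-2 libraries against 187 CPM, and over the block from srw-83 to ZK228.4 they were 114 and 512 CPM against 196 CPM, with intervals that overlapped that of wild-type.

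Mitochondrial genes, also outside the comparison, took 3.24%, 2.62% and 2.39% of all counts in the hrde-1 H3K9me3 libraries (mean 2.75% ± 0.441, SD, n = 3) and 1.79%, 1.11% and 1.48% in the hrde-2 libraries. Wild-type libraries held 1.54% ± 0.343. Every hrde-1 library was above every other H3K9me3 library, but the exact permutation p of 0.1 is the smallest that 3 against 3 libraries can give. The IgG libraries held 6.34% (wild-type), 6.78% (hrde-1) and 1.92% (hrde-2).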

How the results depend on the processing

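The counts of calls moved with the processing. The 100 higher calls became 176 with scaling on the 10% of genes that had the highest counts per kb, 57 with all 9 libraries in the fit, 64 at an adjusted p under 0.01 and 54 to 100 with 1 library left out. The 78 lower calls became 37 with library totals alone, 26 with scaling on that 10% of genes, 120 with no filter, 27 with all 9 libraries, 39 at an adjusted p under 0.01 and 22 to 147 with 1 library left out. In settings added after seeing the data, 62 higher calls remained outside blocks, and 44 lower calls were made among genes of at least 300 exon bases. The 10 blocks became 5 to 10 with 1 library left out. Calls were 98 and 83 with DESeq2 size factors and 84 and 58 with the DESeq2 Wald test. Of the 59 genes chosen by the naming rule, none changed direction and 37 kept their side of the threshold in all settings. Genes named after their values were seen are not part of this count.

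Scaling by totals alone and on the 10% of genes moved the median of all tested genes from 0.00 to 0.07 and 0.12. The list medians moved by about as much, so their shifts and the change of sign of the WAGO and sperm class are not particular to the lists: to 0.12 and 0.17 for genes bound in mut-2, to 0.12 and 0.17 for those bound in mut-2; hrde-2, to 0.0775 and 0.13 for higher mRNA in hrde-2 mutants, and to 0.0543 and 0.11 for the WAGO and sperm class. The list of higher mRNA in hrde-1 mutants reached 0.14 on the 10%. The X share difference of 0.229 points turned to -0.445 without rRNA genes (p = 0.3, exact permutation), to -0.519 without the 10 genes with the most counts (p = 0.3, exact) and ran from -0.0110 (without hrde-1 replicate 1) to 0.453 with 1 library left out. That of the outer parts of autosomes, -0.965, turned to 0.662 and 0.848 without the same genes (exact permutation p = 0.3 and 0.2). The share differences did not pass the test in either direction.

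Deviations of same-numbered libraries correlated at -0.01, 0.05 and -0.01, against -0.03 to 0.04 for pairs with different numbers. The main fit did not treat the libraries as paired, and whether a replicate number marks a shared batch was not tested. With the replicate number as a block there were 128 higher and 139 lower calls and 11 blocks. In that setting 45 and 48 called genes differed from wild-type in hrde-1 and hrde-2 mutants, and every gene chosen by the naming rule kept its side. Under that block the list medians were 0.05, 0.05, 0.03, 0.01 and -0.01 in the order bound in mut-2, bound in mut-2; hrde-2, higher mRNA in hrde-1, higher mRNA in hrde-2, WAGO and sperm class, and the shares differed by 0.229 and -0.965 points. The IgG libraries, at 13682 to 219148 counts, limit what can be said of single genes.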
